A study of Homo sapiens with 4 samples.

Results

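A set of 113 genes was selected on the measured values of 4 RNA sequencing libraries, as genes low in the library labelled DCBLD2 overexpression and high in the shDCBLD2 library. A gene entered the set when its mean level over the 4 libraries was at least 1 CPM (the count scaled to the column sum), when its CPM in the library labelled DCBLD2 was at most the lower of the 2 controls divided by 1.5, and when its CPM in shDCBLD2 was at least 1.5 times the higher of the 2 controls. Symbols starting with any of 15 prefixes, among them those of keratins, claudins, integrins and zinc finger genes, were left out. The table held 57905 genes, of which 13964 passed the filter on the mean, and 113 of these met the rule.

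The libraries are given as A549 in the sources used here, an established line of human lung adenocarcinoma with epithelial origin. The study asked how the level of DCBLD2 relates to the transcriptome. By the study's description, the library labelled DCBLD2 overexpression is of cells that received the DCBLD2 coding sequence in the lentiviral plasmid pLV-EF1-MCS-IRES-Bsd under blasticidin, with the empty vector as control, and the shDCBLD2 library of cells that received a hairpin against DCBLD2 in pLV-H1-EF1α-puro, with a scramble control (sc), each with 1 library. The shDCBLD2 library is titled shD5, and whether the number stands for 1 of the study's hairpins is not given in the sources used here, nor are the plasmid of sc and the drug for sc and shDCBLD2. Vector and sc are controls for different constructs and are not replicates. Column sums were 19104052 counts in sc, 21537283 in shDCBLD2, 18718562 in vector and 16601633 in the library labelled DCBLD2. With 1 library per condition there is no replicate check, every comparison is between libraries and not between conditions, and the 95% intervals (exact Clopper-Pearson on the share of 2 counts) cover counting error only.

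DCBLD2 is a transmembrane protein with CUB, LCCL and discoidin domains outside the cell, and is known as a scaffold at growth factor receptors. Genes that move in opposite directions when such a protein is raised and when it is reduced are usually read as candidates for genes it holds down, a reading that depends on the protein having been raised and reduced. Roles met in the set include secreted signalling proteins, actin regulators, the machinery that makes ribosomes and proteins, cell division and membrane transport.

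The DCBLD2 transcript (ENSG00000057019) had 516 CPM in sc, 426 in vector, 241 in the library labelled DCBLD2 overexpression and 198 in shDCBLD2. Against vector, the log2 ratio of the library labelled DCBLD2 was -0.82 (95% interval -0.88 to -0.77), so the transcript was lower there and not higher, and the log2 ratio of shDCBLD2 to sc was -1.38 (-1.44 to -1.33). After the rescaling by GC content described below, these ratios were -0.39 and -1.43. The transcript thus goes with the shDCBLD2 label and against the other, so that no direction below can be read as an effect of more DCBLD2. Whether that library was swapped or mixed with other cells was not tested, and its name is used as a label only.

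The library labelled DCBLD2 also stood apart in 2 further ways. CDKN2A, a cell cycle inhibitor gene in a region of chromosome 9 that A549 cells have lost, had 2104 counts there and 0 in each of the other 3 libraries. Genes of chromosome Y and XIST were left out of the next count. Of the rest, genes with at least 10 counts in 1 library and 0 in the other 3 numbered 94 for the library labelled DCBLD2, 2 for shDCBLD2 and 0 for sc and for vector. The neurofilament gene NEFM had 221 counts in the library labelled DCBLD2 against 1, 4 and 0 in sc, shDCBLD2 and vector, and the neuropeptide gene GAL had 304 against 28, 87 and 38. Of the 4 genes listed as markers of cells like the human kidney line that packages lentivirus, these 2 were thus present, and SYT4 and STMN2 were at 0 in all 4 libraries. Most markers of A549 were above 300 CPM in all 4 libraries: the keratin genes KRT8 and KRT18 had 8498 and 5861 CPM in the library labelled DCBLD2 and 5516 and 3756 in vector, and the aldo-keto reductase gene AKR1B10 had 2309 and 2370. ALDH3A1 and AKR1C1 were also higher there than in vector, at 4414 against 2478 CPM and 883 against 555. KRT7, ALDH1A1 and AKR1C2 were lower, at 4496 against 5173, 3396 against 5536 and 2254 against 2791, so the markers followed no single direction. The surface marker EPCAM was low throughout, between 1.21 and 5.30 CPM, and NKX2-1, a lung lineage factor, had 7 counts in the library labelled DCBLD2 and 0 elsewhere. The lung products NAPSA, SFTPC and SFTPB had at most 1.07 CPM in any library. Of 10 blood markers, 2 had a mean of at least 1 CPM, CD14 was the most abundant and PTPRC was at 0, and their summed level was 18.5 CPM in sc, 10 in shDCBLD2, 24.4 in vector and 34.2 in the library labelled DCBLD2. Of 9 measured endothelial markers, 1 passed that level, VWF was at 0, and the sums were 2.93, 2.79, 4.59 and 4.22 CPM in the same order. Of 10 fibroblast markers, 5 passed, COL1A1 was the most abundant and FAP was at 0, with sums of 40.1, 60.6, 45.2 and 85.8 CPM. Of 10 neuronal markers, 5 passed, TUBB3 was the most abundant and 3 were at 0, with sums of 105, 121, 97.3 and 121 CPM. TUBB3 made up 55.1, 78.1, 39.5 and 43.2 CPM of these sums. In the library labelled DCBLD2 against vector, 3 of the 5 neuronal and 4 of the 5 fibroblast markers were at least 1.5-fold higher. In both lists 0 were lower, beside 13.9% higher and 17.9% lower over all genes past the filter. The part of these transcripts in the low values of the set was not tested.

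The other difference lay in base composition. Genes were divided into 5 equal groups by the GC content of their longest annotated transcript. Among the genes of lowest GC content, from 28.6% to 41.3%, the median log2 ratio of the library labelled DCBLD2 to vector was -0.54, and it was 0.31 among those of highest GC content, from 58.6% to 74.7%. The shDCBLD2 library ran the other way against sc, from 0.10 to -0.12, and vector against sc ran from -0.20 to 0.14. Against the other control, which the rule also uses, both trends were wider. The library labelled DCBLD2 ran from -0.74 to 0.46 against sc, and shDCBLD2 from 0.28 to -0.27 against vector. The members of the set had a median transcript GC content of 41.6% against 49.1% over all genes past the filter, measured for 112 of 113 members and 13688 of 13964 genes. Each gene was therefore also considered after the libraries had been rescaled within 20 bins of GC content. Of the 112 members, 42 then met both criteria of the rule. These values are given beside the groups of genes below, and the cause of the difference in composition was not tested.

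As the rule fixes, the criterion on the library labelled DCBLD2 was met by 2081 genes (14.9% of those past the filter), the criterion on shDCBLD2 by 436 (3.12%), and both by 118 (0.845%), which is 5.67% of the first list and 27.1% of the other. The 113 members are these 118 genes less 5 with a left-out prefix. The mirror rule, high in the library labelled DCBLD2 and low in shDCBLD2, was met by 471 genes before any prefix was left out. Over all genes, the library labelled DCBLD2 was at least 1.5-fold below vector for 17.9% and above it for 13.9%, and 13.7% were lower and 4.72% higher in shDCBLD2 than in sc. Both criteria share the 2 control libraries, so the opposite directions of the 2 libraries are built into the choice of members.

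Among the members, the median log2 ratio of the library labelled DCBLD2 to vector was -1.0, ranging from -2.32 to -0.58, and that of shDCBLD2 to sc was 0.79, ranging from 0.58 to 2.57. Over all genes past the filter both medians were -0.02. The fold below the lower control exceeded the fold above the higher control for 81 members, and the reverse held for 32. That order did not hold after rescaling by GC content, where the median folds were 1.49 below and 1.61 above, and 52 members met the low criterion and 74 the high one. At a fold of 2 or more on both sides, 11 members were left. All 4 intervals against the controls excluded no difference for 104 members and lay wholly past 1.5-fold for 30, a description of count depth and no support for the members, since the same counts chose them. The lowest count of a member in the library labelled DCBLD2 was 5, and 18 members had under 20 counts there. In bulk RNA, fewer cells of a kind and less RNA per cell cannot be told apart. Just inside the threshold stood ERCC6L, SFRP1 and FERMT2, whose smaller fold rounded to 1.5, and just outside it, with the same rounded value, stood BNC2, TM4SF19 and LINC00941. For example, BNC2 had 12.8 CPM in sc, 9.14 in vector, 5.06 in the library labelled DCBLD2 and 19.1 in shDCBLD2.

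Potassium channel genes gave some of the strongest members, in the order set by the smaller of the 2 log2 ratios. KCNMA1 (ENSG00000156113), the pore-forming subunit of the large-conductance calcium-activated potassium channel, had 31.2 CPM in sc, 41.1 in vector, 8.13 in the library labelled DCBLD2 and 93.9 in shDCBLD2. It was the member with the lowest ratio of the library labelled DCBLD2 to vector, a log2 ratio of -2.32 (-2.61 to -2.07), and its log2 ratio of shDCBLD2 to sc was 1.58 (1.45 to 1.72). KCNE4, an accessory subunit that modulates voltage-gated potassium channels, had 3.19, 2.03, 0.482 and 8.40 CPM in sc, vector, the library labelled DCBLD2 and shDCBLD2. KCNH1, a voltage-gated channel of the ether-a-go-go family, had 3.98, 3.79, 1.26 and 9.01 CPM in the same order. In all 3 genes the controls lay closer to each other than to either of the other libraries, although for KCNE4 they were 1.57-fold apart. KCNJ6, an inwardly rectifying channel gated by G proteins, differed, with 212 counts in sc but 61 in vector. As a fold, its range between the controls (3.41) was wider than its distance below the lower control (1.59) or above the higher one (1.95). These 4 were the members among 34 potassium channel genes past the filter, a family looked at after the values were seen, beside 0.809% of all genes past the filter. Of the 34, 15 were at least 1.5-fold higher and 4 lower in the library labelled DCBLD2 than in vector, and 13 were lower and 7 higher in shDCBLD2 than in sc. Over all genes these shares were 13.9%, 17.9%, 13.7% and 4.72%.

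The other transport genes ranged up to the threshold. SLC26A2, a sulfate transporter, had 60.4 CPM in sc, 48.4 in vector, 18.3 in the library labelled DCBLD2 and 90.8 in shDCBLD2. It was 2.64-fold below the lower control and 1.5-fold above the higher one. GABRA5, a subunit of the GABA type A receptor, LRRC8C, a subunit of volume-regulated anion channels, and SLC6A17, a vesicular amino acid transporter, completed the 8 members of this kind, of which 5 met both criteria after rescaling by GC content.

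Secreted factors, matrix and their receptors were grouped by hand with a few related genes, 16 members in all. NPTX1 (ENSG00000171246), a neuronal pentraxin, had 2735 counts in sc, 2660 in vector, 1172 in the library labelled DCBLD2 and 14035 in shDCBLD2. Its controls differed by a log2 ratio of -0.01 (-0.09 to 0.07), and its 4.55-fold excess of shDCBLD2 over the higher control was the largest among the 113 members. On the per-length scale NPTX1 reached 97.2 FPKM (fragments scaled by exonic length and column sum) in shDCBLD2, from 21.4 in sc. CCBE1, a matrix protein needed for the processing of VEGF-C in lymphatic growth, had 6.18 CPM in sc, 9.14 in vector, 3.37 in the library labelled DCBLD2 and 36.8 in shDCBLD2. Like NPTX1, it stood out on the shDCBLD2 side, with a 4.03-fold excess.

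ANPEP, the surface peptidase aminopeptidase N, had 14.8 CPM in sc, 20.9 in vector, 5.72 in the library labelled DCBLD2 and 49.1 in shDCBLD2. INHBA (ENSG00000122641), which encodes the subunit of activin A, had 73 counts in sc, 29 in vector, 12 in the library labelled DCBLD2 and 279 in shDCBLD2. For INHBA the log2 ratio of vector to sc was -1.25 (-1.98 to -0.66), beside 1.73 (1.38 to 2.15) for shDCBLD2 against sc, so the controls were themselves apart. ACKR3 (ENSG00000144476), an atypical receptor that takes up the chemokine CXCL12, showed this more: it had 68.1 CPM in sc, 21.3 in vector, 5.54 in the library labelled DCBLD2 and 117 in shDCBLD2. Its 21.2-fold span from the lowest to the highest library was the widest in the set, and 3.20-fold of it lay between the 2 controls. LY6K, a GPI-anchored surface protein, was scarce, with 20 counts in sc, 29 in vector, 6 in the library labelled DCBLD2 and 74 in shDCBLD2.

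Both Wnt-related members were extracellular. WNT5A, a ligand that mostly signals without β-catenin, had 9.06, 6.78, 3.61 and 15.2 CPM in sc, vector, the library labelled DCBLD2 and shDCBLD2. SFRP1, a secreted protein that binds and blocks Wnt ligands, had 51.9, 59.2, 34.6 and 99.8 CPM in that order, on the threshold for the low criterion. F2RL2, a thrombin-cleaved receptor of the protease-activated family, had 13.3, 10.9, 6.32 and 20.2 CPM. The remaining members of the group were IGFN1, CRISPLD2, FLRT2, CLMP, NETO2, SPOCK1 and GALNT13, of which GALNT13 is a Golgi glycosyltransferase and IGFN1 is not a secreted protein. Of these, CRISPLD2 and IGFN1 were 3.84-fold and 3.50-fold below the lower control, and SPOCK1, a matrix proteoglycan, was 2.56-fold above the higher one. After rescaling by GC content, 8 of the 16 met both criteria, among them NPTX1, ANPEP, ACKR3 and LY6K, while INHBA was 1.48-fold below its lower control, CCBE1 1.49-fold and WNT5A 1.39-fold.

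The 15 genes of actin, adhesion and small GTPase control held abundant and scarce transcripts. CAV1, the main structural protein of caveolae, had 313 CPM in sc, 311 in vector, 163 in the library labelled DCBLD2 and 498 in shDCBLD2. ACTR3, a subunit of the Arp2/3 complex that nucleates branched actin, had 186, 156, 84.8 and 303 CPM in that order. Per length, CAV1 was the more abundant, at 76.8 FPKM in sc against 15.5 for ACTR3. Both had tight counting intervals, for instance 0.62 to 0.71 on the log2 scale for CAV1 in shDCBLD2 against sc. DOCK10, a guanine nucleotide exchange factor, had 27.6 CPM in sc, 25.1 in vector, 5.72 in the library labelled DCBLD2 and 52.8 in shDCBLD2, and its 4.38-fold distance below the lower control was the largest of any member. NEXN, an actin filament binding protein, had 35 counts in sc, 32 in vector, 12 in the library labelled DCBLD2 and 100 in shDCBLD2. FERMT2, the integrin activator kindlin-2, lay at the threshold, with 41.2, 27.5, 18.3 and 64.9 CPM in sc, vector, the library labelled DCBLD2 and shDCBLD2. The others were RND3, RGS2, RAB3B, ARHGAP31 and CYTH4, which are GTPases or act on G proteins and GTPases, and KIAA1462 (now JCAD), CTNNAL1, FRMD6, NAV3 and SH3KBP1, which act at junctions, the cytoskeleton or endocytic adaptors. After rescaling, 5 of the 15 met both criteria, and CAV1 and ACTR3 did not, at 1.48-fold and 1.53-fold on the high side and 1.57-fold and 1.19-fold on the low side.

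Immune and survival genes included CD274 (ENSG00000120217), which encodes the checkpoint ligand PD-L1. CD274 had 22 counts in sc, 64 in vector, 11 in the library labelled DCBLD2 and 159 in shDCBLD2. Its log2 ratio of shDCBLD2 to sc, 2.57 (2.03 to 3.40), was the highest in the set, but vector exceeded sc by 1.49 (0.85 to 2.34), and the interval of the library labelled DCBLD2 against sc, -1.99 to 0.31, included no difference. BCL2A1, an anti-apoptotic protein of the BCL2 family, had a like order, with 2.62 CPM in sc, 5.18 in vector, 1.45 in the library labelled DCBLD2 and 10.2 in shDCBLD2. Both genes were thus higher in vector than in sc. MARCHF4, a membrane-bound ubiquitin ligase, had no such gap: its CPM was 20.1 in sc, 19.1 in vector, 7.59 in the library labelled DCBLD2 and 49.3 in shDCBLD2. MAP3K14, the kinase NIK of the non-canonical NF-kB pathway, had 114, 103, 57.8 and 208 CPM in that order, and it overlaps its antisense gene MAP3K14-AS1. VRK2, STK17A and MOK, 3 further kinases, made up the 7 members, of which MARCHF4, MAP3K14 and MOK met both criteria after rescaling.

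Among 7 regulators of transcription, FOXC2, a forkhead factor of mesenchymal and lymphatic development, had 36 counts in sc, 32 in vector, 13 in the library labelled DCBLD2 and 112 in shDCBLD2. ARNTL2 and CRY1 belong to the circadian clock. ARNTL2, a partner of CLOCK, had 29.2 CPM in sc, 34.9 in vector, 13.4 in the library labelled DCBLD2 and 68.7 in shDCBLD2. RUNX2, the master factor of bone formation, had 6.54, 4.33, 1.81 and 11.8 CPM in that order. MYBL1, BEND6 and BAZ1A were the others, and FOXC2 and RUNX2 met both criteria after rescaling.

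The motif of AP-1, a factor named by the study, and 6 other motifs were looked for in promoters of the members. RefSeq promoter windows, from 250 bases before to 50 after the start of the gene on GRCh38.p14, were at hand for 82 of the 113 members. The AP-1 letters TGANTCA, read on both strands, occurred in 7 of the 82 (8.54%), in 4.46% of 10631 promoters of genes past the filter and in 7.76% of all 27305 promoters. The 4 members whose 250 upstream bases hold the form TGAGTCA are shown 5′ to 3′ on the strand of the gene with the match in capitals, and no other motif searched overlaps a match. They are RUNX2 at chr6:45328080-45328329 on the plus strand, RAB3B at chr1:51990701-51990950 on the minus strand, SLC6A17 at chr1:110150244-110150493 on the plus strand and F2RL2 at chr5:76623404-76623653 on the minus strand.
RUNX2: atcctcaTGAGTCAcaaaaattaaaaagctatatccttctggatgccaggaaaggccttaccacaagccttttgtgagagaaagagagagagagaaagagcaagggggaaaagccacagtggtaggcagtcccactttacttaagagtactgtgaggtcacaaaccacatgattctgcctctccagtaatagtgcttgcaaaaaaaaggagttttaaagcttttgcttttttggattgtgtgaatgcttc
RAB3B: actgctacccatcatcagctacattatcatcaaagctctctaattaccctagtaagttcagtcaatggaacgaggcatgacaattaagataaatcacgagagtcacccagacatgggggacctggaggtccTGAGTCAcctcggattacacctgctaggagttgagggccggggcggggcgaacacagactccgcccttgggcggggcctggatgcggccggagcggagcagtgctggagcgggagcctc
SLC6A17: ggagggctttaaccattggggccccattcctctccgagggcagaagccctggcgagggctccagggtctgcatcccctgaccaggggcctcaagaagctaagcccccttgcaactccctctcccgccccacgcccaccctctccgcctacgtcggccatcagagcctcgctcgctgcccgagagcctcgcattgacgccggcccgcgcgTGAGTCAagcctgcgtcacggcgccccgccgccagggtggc
F2RL2: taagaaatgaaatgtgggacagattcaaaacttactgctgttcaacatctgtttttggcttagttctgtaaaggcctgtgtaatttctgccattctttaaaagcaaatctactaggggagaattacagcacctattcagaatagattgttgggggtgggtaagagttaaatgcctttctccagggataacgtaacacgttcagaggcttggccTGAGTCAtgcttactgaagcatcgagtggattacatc
The matches begin at positions -243, -119, -41 and -37 from the start of the gene, in that order, so they share letters but not a place. SLC6A17 and RAB3B have GC-rich sequence near the start, while the F2RL2 and RUNX2 windows are rich in A and T. The promoters of the members had a lower median GC content, 61.5% against 65.7% for genes past the filter, and its part in the motif shares was not tested. The share in the members is given for the other motifs beside genes past the filter and all promoters. The ZEB and SNAI E-box CAGGTG was in 13.4% against 18.3% and 20.6%, TEAD GGAATG in 9 of 82 against 10.7% and 14%, and the antioxidant response core TGACNNNGC in 7.32% against 15.1% and 13.6%. STAT TTCNNNGAA was in 7.32% against 6.14% and 7.88%, TCF/LEF CTTTGAT in 2.44% against 1.26% and 2.64%, and the TATA box TATAAA in 8.54% against 5.18% and 12%, so these 3 lay between the 2 comparison sets. A match is a description of the letters and says nothing of binding.

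Members that act in the making of ribosomes and proteins were placed by hand in 2 groups. DDX21, a nucleolar RNA helicase, had 135 CPM in sc, 111 in vector, 63.9 in the library labelled DCBLD2 and 217 in shDCBLD2. NOP58, DDX18, UTP20, KIAA0020 (now PUM3), BCCIP, PAK1IP1, LLPH, MPHOSPH6 and RBM34 brought the nucleolar and ribosome biogenesis members to 10, with median folds of 1.83 below the lower control and 1.57 above the higher one. In translation, EIF4G2, an initiation scaffold that lacks the cap-binding part, had 750 CPM in sc, 708 in vector, 323 in the library labelled DCBLD2 and 1217 in shDCBLD2. BZW1, which competes with the initiation factor EIF5, had 129, 124, 46.9 and 256 CPM in that order. EIF5 itself, the GTPase activator of the initiation complex, had 166, 128, 81.6 and 285 CPM. All 3 lay low in the library labelled DCBLD2 and high in shDCBLD2 with intervals clear of no difference, as the choice of members implies. The transfer RNA ligases RARS and TARS were members among 20 cytosolic aminoacyl-tRNA synthetase genes past the filter, beside 0.809% of all genes. Of the 20, 7 were 1.5-fold or more below vector in the library labelled DCBLD2 and 2 at least 1.5-fold higher in shDCBLD2 than in sc, beside 17.9% and 4.72% of all genes. ALKBH8, NSUN6 and TRMT13, which modify transfer RNA, with POLR3G, PAPD5 and GUF1, completed 11 members. These groups had the low transcript GC content of the set, with medians of 41.2% and 39.8%. After rescaling, 3 of 10 and 1 of 11 met both criteria. BZW1 was the 1 of translation, and EIF4G2 and EIF5 did not, at 1.43-fold on the high side and 1.16-fold on the low side.

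HSP90AA1 (ENSG00000080824), the inducible cytosolic chaperone HSP90 alpha, was the most abundant member. It had 1092 CPM in sc, 964 in vector, 308 in the library labelled DCBLD2 and 2096 in shDCBLD2, and 208, 184, 58.6 and 399 FPKM in that order. Its log2 ratio was -1.65 (-1.69 to -1.60) for the library labelled DCBLD2 against vector and 0.94 (0.92 to 0.96) for shDCBLD2 against sc. HSP90AA1 held 18.3% of the summed CPM of the set in sc, and it kept both criteria after rescaling, at 2.75-fold and 1.92-fold. PSMC1 and PSMC6, ATPase subunits of the proteasome cap, were members among 37 proteasome subunit genes past the filter, beside 0.809% of all genes. Of the 37, the library labelled DCBLD2 was at least 1.5-fold below vector for 13 and above it for 0, beside 17.9% and 13.9% of all genes. In the same genes shDCBLD2 was below sc for 1 and above it for 2, beside 13.7% and 4.72%. The deubiquitinases STAMBPL1 and UCHL3 and the ribosome-associated chaperone DNAJC2 were also in this group of 7, of which 3 met both criteria after rescaling.

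In mitosis and DNA repair, KPNA2, an importin alpha that carries proteins into the nucleus, had 452 CPM in sc, 401 in vector, 193 in the library labelled DCBLD2 and 734 in shDCBLD2. CCNE2, cyclin E2 of the entry into DNA synthesis, had 49 counts in sc, 24 in vector, 12 in the library labelled DCBLD2 and 102 in shDCBLD2, and its interval against vector, -1.96 to 0.23, included no difference. ERCC6L, a helicase at anaphase bridges, lay at the threshold with 17.5, 12.6, 6.20 and 26.3 CPM in sc, vector, the library labelled DCBLD2 and shDCBLD2. ANLN, SMC4, MIS18A and ASUN act in division, and RAD54B, RAD51AP1 and LIG4 in repair of DNA breaks. These 10 genes had the lowest median GC content of any group, 38.8%, and KPNA2 was the 1 gene of the 10 that met both criteria after rescaling.

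DIO2 (ENSG00000211448), the deiodinase that activates thyroid hormone inside cells, was the strongest member by the smaller of its 2 ratios. It had 164 counts in sc, 97 in vector, 21 in the library labelled DCBLD2 and 489 in shDCBLD2, with log2 ratios of -1.95 (-2.79 to -1.34) for the library labelled DCBLD2 against vector and 1.39 (1.15 to 1.67) for shDCBLD2 against sc. DIO2 was therefore 17.9-fold apart between the lowest and the highest library. The other metabolic members were nearer the threshold. FABP5, a fatty acid binding protein, had 13 CPM in sc and 10.2 in vector, 5.84 in the library labelled DCBLD2 and 21.0 in shDCBLD2. CYCS (cytochrome c), PDSS1 of ubiquinone synthesis and CHAC2 of glutathione breakdown were also in this group of 6, in which DIO2 and FABP5 met both criteria after rescaling.

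PEG10, an imprinted gene derived from a retrotransposon, had 223 CPM in sc, 136 in vector, 80.8 in the library labelled DCBLD2 and 345 in shDCBLD2. It stood with 6 entries that are long non-coding RNAs or pseudogenes: DLEU2, SBDSP1, HNRNPA1P33, RP11-1002K11.1, AC006946.16 and GS1-257G1.1. Of these 7 members, 6 had a GC value, and 4 met both criteria after rescaling by GC content. PEG10 did not, at 1.37-fold on the low side. Reads of the pseudogenes, of RGPD8 and of HSP90AA1, KPNA2, CYCS and FABP5 can be shared with near-identical copies, so these values are less certain. The last 9 members were FAM126A, C10orf90, KIAA1549L, C11orf86, C12orf4, RGPD8, SAMD15, LINS and KIAA1755, which were not placed in a group. Of these 9, 5 met both criteria after rescaling. In all, 32 members overlap another gene past the filter, HSP90AA1, SLC26A2, F2RL2, LY6K, CCNE2 and ERCC6L among them, and whether the counting used the strand is not given in the sources used here.

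The comparison of the controls was not free of the choice of members, since the rule took the lower and the higher of them. The members had a median log2 ratio of vector to sc of -0.13, beside -0.07 over all genes. Of the 113, 13 were at least 1.5-fold lower and 3 at least 1.5-fold higher in vector than in sc, against 9.41% and 6.55% of all genes past the filter. The members at the ends were KCNJ6, at -1.74 (-2.20 to -1.35), and CD274, at 1.49 (0.85 to 2.34). The controls differed at least 2-fold for 7 members.

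The low GC content of the members went more with the criterion on the library labelled DCBLD2 than with that on shDCBLD2. Genes that met the criterion on the library labelled DCBLD2 had a median of 40.7%, lower than the 41.6% of the members, and those that met the criterion on shDCBLD2 had 47.6%. The criterion on the library labelled DCBLD2 was met by 42.3% of genes in the group of lowest GC content and by 0.986% in the group of highest, whereas the criterion on shDCBLD2 was met by 3.87% and 2.30%. Members numbered 51, 32, 18, 7 and 4 from the lowest to the highest group. After rescaling within GC bins the criterion on the library labelled DCBLD2 was met by 4.94% of genes and that on shDCBLD2 by 3.24%, and 54 genes met the rule, 42 of them from the 113. Of the 112 members with a GC value, 104 were still below both controls in the library labelled DCBLD2 and 112 still above both in shDCBLD2, in each case by any amount. Of the 12 strongest members, 10 met the rule either way, NEXN and INHBA being the exceptions at 1.47-fold and 1.48-fold on the low side. The members, and the 12 strongest more so, were chosen on these same counts for their distance from the controls. These numbers are thus a description and no support for the members.

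Position and annotation gave weaker descriptions. Chromosome 2 held 14 members (12.4%, beside 6.69% of genes past the filter) and chromosome 14 held 11 (9.73%, beside 3.39%), while chromosome 19 held 0 of its 976 genes. Chromosome 19 also had the highest median transcript GC content, 59.2%, and the criterion on the library labelled DCBLD2 was met by 6.25% of its genes against 26.3% on chromosome 2, where the median GC content was 45.1%. The criterion on shDCBLD2 was met by 0.717% of its genes, the lowest share of any chromosome, against 4.93% on chromosome 2 and 3.12% of all genes. On chromosome 12, C12orf4 and RAD51AP1 lie 275 bases apart by the deposited coordinates, which are human but whose build was not settled. The median exonic length was 4943 bases for members and 4590 for all genes. The deposited gene ontology terms were looked at after the values were seen. Members made up 1.32% of 1362 nucleolus genes, 2.48% of 282 for cell division, 1.35% of 1784 for plasma membrane and 0.546% of 2197 for integral membrane components. They made up 4.44% of 90 for extracellular matrix, 3.51% of 114 for focal adhesion and 3.27% of 153 for actin cytoskeleton, beside 0.809% of all genes past the filter. Of the 90 extracellular matrix genes, 38 were at least 1.5-fold higher and 7 lower in the library labelled DCBLD2 than in vector, beside 13.9% and 17.9% of all genes. In shDCBLD2 against sc, 28 of the 90 were lower and 11 higher, beside 13.7% and 4.72%, so most of the matrix genes that moved ran against the members.

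Members made up 0.809% of the genes past the filter, and the 21 pathway lists, of 11 to 48 genes each, held from 0 to 2, numbers too small to set against that share. Of 37 genes past the filter for epithelial-mesenchymal transition (EMT) and matrix remodelling and of 34 in TGF-beta and BMP signalling, INHBA was the member. The median log2 ratio of the EMT list was 0.37 for the library labelled DCBLD2 against vector and 0.12 for shDCBLD2 against sc. In this list 14 genes were at least 1.5-fold higher and 4 lower in the library labelled DCBLD2 than in vector, beside 13.9% and 17.9% of all genes. In shDCBLD2 against sc, 11 were higher and 11 lower, beside 4.72% and 13.7%. SFRP1 and WNT5A were members of 33 genes of the Wnt and β-catenin list, in which 15 genes were at least 1.5-fold higher and 4 lower in the library labelled DCBLD2 than in vector, beside 13.9% and 17.9% of all genes, and 5 were higher and 9 lower in shDCBLD2 than in sc, beside 4.72% and 13.7%. BCL2A1 was the member of 30 NF-kB genes, CCNE2 of 37 cell cycle genes, FABP5 of 35 lipid genes and ANPEP of 11 gastric and intestinal products. ACKR3 and F2RL2 were members of 39 G protein-coupled receptor genes, and KCNMA1 and SLC26A2 of 33 ion channel and solute carrier genes. In the cell cycle list 15 of 37 genes were 1.5-fold or more below vector in the library labelled DCBLD2 and 2 were at least 1.5-fold higher in shDCBLD2 than in sc, beside 17.9% and 4.72% of all genes. No member came from the lists for epithelial junctions (27 genes past the filter), ERK and AP-1 response (30), interferon response (36), YAP and TEAD targets (25), Notch (19), hypoxia and glycolysis (39), NRF2 and detoxification (48), p53 targets (30), unfolded protein and amino acid stress (31), complement and coagulation (36), growth factor receptors and ligands (42), endoderm and lung lineage factors (30), or the blood, endothelial, fibroblast and neuronal markers. The rule itself kept FOSL1 out, a gene of the ERK and AP-1 list that met both criteria and was left out by its prefix. Of the 5 fibroblast markers past the filter, 4 are collagens, whose prefix is also left out. None of the 5 met the criterion on the library labelled DCBLD2, so the prefix removed no member there.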

How the data were processed

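Poly(A) RNA from 4 lines, given as A549 in the sources used here, was sequenced, 1 library per line. The authors deposited gene counts, not normalized, in 1 table, and FPKM values in the same table, made by the authors from the count, the exonic length and the column sum. The aligner, the counting program, its use of strand and the annotation are not given in the sources used here. The submitters' processing notes name mm9, a mouse build, while the identifiers are of human genes. The deposited chromosomes include 20, 21 and 22, which a mouse build does not have, so the coordinates are human. For RAB3B they differ from the GRCh38.p14 position used for its promoter. Which human build they follow was not settled, and only chromosomes and distances are printed from them. Groups followed the sample labels. The members and lists were chosen with earlier results of these data known.

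CPM used column sums. Log2 ratios used a prior count of 2 scaled to the library. P-values were not computed, as each condition has 1 library. TMM factors (edgeR 4.0.16) and size factors (DESeq2 1.42.0) in R 4.3.3 were alternatives, with prior counts of 0.5 and 5, folds of 1.3 and 2, other minima, the other control and thinned counts. Python 3.11.15, numpy 2.4.6, pandas 2.3.3, scipy 1.17.1 and matplotlib 3.10.9 did the rest. The calculations were tested on simulated data. GC content came from the longest GENCODE 29 transcript of each gene, found for 98.0% of genes past the filter. Rescaling by GC content, in 20 bins with the median ratio to the mean of the controls set to 0, was chosen after seeing the data.

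Named genes are the 12 strongest members (by the smaller of the 2 log2 ratios), the 10 of highest mean CPM, members in a fixed list, 3 genes on each side of the threshold, and DCBLD2. Any other gene, and the 12 role groups, were chosen after the values were seen.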

Additional observations from a re-analysis of the deposited data

How the results depend on the processing

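The number of members, 113, was 126 with TMM factors (107 of the 113 among them), 140 with DESeq2 size factors (109) and 115 with counts thinned to the smallest column sum (99). It was 86 at a mean CPM of at least 5, 118 with no prefix left out, 81 without genes that overlap another and 104 with all 4 count intervals on 1 side of no difference. It was 30 with all 4 intervals past 1.5-fold, 11 at a fold of 2, 480 at a fold of 1.3, 207 with each library set against its own control only, and 1788 with no minimum on the mean CPM, where 1203 had 0 counts in both controls. These follow from the looser or stricter condition. Rescaling by GC content, chosen after seeing the data, left 54 genes, and the cause was not tested. The criterion on the library labelled DCBLD2 was met by 14.3% of genes with DESeq2 factors, 4.03% at a fold of 2 and 4.94% after rescaling by GC content. The criterion on shDCBLD2 was met by 3.72%, 0.738% and 3.24%, and by 2.42% at a mean CPM of at least 5. The mirror rule gave 217 genes at a mean CPM of at least 5 and 198 at a fold of 2. Under every alternative run, the median log2 ratio of the members stayed between -1.13 and -0.70 for the library labelled DCBLD2 and between 0.72 and 0.96 for shDCBLD2, where the values nearest 0 came from subtraction of the GC bin median. The median of all genes moved by less than 0.1 on the log2 scale between scalings. Of 68 ratios of named genes, none changed sign under 4 alternatives, and 6 left their counting interval with DESeq2 factors and 2 with TMM factors. No replicate could be left out, and no paired analysis was possible because each condition has 1 library. Depth limits the 18 members with under 20 counts in the library labelled DCBLD2.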

Other observations

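5 genes met both criteria but carry a left-out prefix: FOSL1, SNAI1, ZNF469, ZNF141 and ZNF365. FOSL1, an AP-1 subunit, had 33.3 CPM in sc, 40.6 in vector, 19.9 in the library labelled DCBLD2 and 102 in shDCBLD2. SNAI1, a repressor of epithelial genes in EMT, had 13.8, 9.14, 4.28 and 23.1 CPM in that order. Both were thus highest in shDCBLD2, the library in which the DCBLD2 transcript was lowest, and lowest in the library labelled DCBLD2. ZNF469 had 32.3, 22.2, 13 and 64.9 CPM, and ZNF141 and ZNF365 had under 60 counts in every library.

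After rescaling by GC content, 12 genes met the rule that were not among the 113, and the 54 genes that met it had a median transcript GC content of 49.8%, beside 49.1% over all genes past the filter. The DCBLD2 transcript, at 41.8% GC, lies near the composition of the members, and its log2 ratio of the library labelled DCBLD2 to vector was -0.82 before and -0.39 after rescaling.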
